A study of Homo sapiens with 6 samples.

Results

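The miR-192, miR-194 and miR-215 miRNAs come from 2 short gene clusters, in each of which a hairpin of the miR-192/215 type lies beside a copy of the miR-194 hairpin. The 5 mature strands described here, hsa-miR-192-5p, hsa-miR-192-3p, hsa-miR-194-5p, hsa-miR-194-3p and hsa-miR-215-5p, were taken by name from 2588 mature miRNAs measured by small RNA sequencing. They were chosen with the difference between control and knockout cells already known, so the fold changes, shares and strand ratios between these groups are given as a description and carry no test. All 6 libraries were made from A549, a human cell line derived from a lung adenocarcinoma and grown in DMEM with FBS, and were harvested 48 h after seeding. The 3 Ctrl libraries were of parental cells. The 3 *MIR21*-KO libraries were of cells in which CRISPR/Cas9 with a pair of sgRNAs had removed the *MIR21* hairpin locus. Per the study's methods the deletion was established in single-cell clones. How many clones stand behind the 3 *MIR21*-KO libraries is not given in the sources used here, so a difference between the groups may belong to a clone, and this cannot be told apart from the deletion. The study's methods state biological replication for its experiments in general, and the sample labels do not say how the 3 libraries of a group were kept apart, so standard errors measure the spread between these libraries.

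Mature miRNAs guide Argonaute proteins to target mRNAs, mainly through the seed, bases 2 to 8 counted from the 5′ end. Either arm of the hairpin can give a mature strand, but usually one of them (the guide) is retained and the other (the passenger) is degraded. miR-192, miR-194 and miR-215 are abundant in liver, gut and kidney, where hepatocyte nuclear factor 1 (HNF1) drives their transcription, and they are also known as p53-responsive miRNAs with antiproliferative targets.

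The mature strands are shown first, because their shared and separate bases decide which reads can be assigned to which cluster. Capitals mark the seed (sequences from RefSeq, GRCh38.p14, 5′ to 3′).
miR-192-5p: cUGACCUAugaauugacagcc
miR-215-5p: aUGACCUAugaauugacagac
miR-192-3p: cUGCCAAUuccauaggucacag
miR-194-5p: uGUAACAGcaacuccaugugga
miR-194-3p: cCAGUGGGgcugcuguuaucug
miR-192-5p and miR-215-5p carry the same seed, UGACCUA, and no other mature strand in the RefSeq table had it. They differ at 2 positions, C1A and C20A, counted from 1 at the 5′ end with the base of miR-192-5p first. Between them lies a shared run of 18 bases, positions 2 to 19, so a read that lacks its end bases can fit both. The other 3 strands share their seed with no further mature strand in that table.

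The 4 hairpins show the arrangement of the clusters. Capitals mark the mature strands listed by RefSeq (GRCh38.p14, all on the minus strand).
MIR192: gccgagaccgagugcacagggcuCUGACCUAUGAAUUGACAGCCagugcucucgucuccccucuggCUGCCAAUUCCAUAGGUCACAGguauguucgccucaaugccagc
MIR194-2: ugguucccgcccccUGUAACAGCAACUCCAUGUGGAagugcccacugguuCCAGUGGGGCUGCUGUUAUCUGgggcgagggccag
MIR215: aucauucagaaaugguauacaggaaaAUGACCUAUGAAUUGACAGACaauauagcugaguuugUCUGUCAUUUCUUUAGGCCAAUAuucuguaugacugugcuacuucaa
MIR194-1: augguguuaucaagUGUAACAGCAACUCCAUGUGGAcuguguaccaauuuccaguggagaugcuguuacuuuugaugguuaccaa
*MIR192* (chr11:64891137-64891246) and *MIR194-2* (chr11:64891355-64891439) are separated by 108 bases and lie whole within an exon of the lincRNA *MIR194-2HG*. *MIR215* (chr1:220117853-220117962) and *MIR194-1* (chr1:220118157-220118241) are separated by 194 bases and lie within an intron of *IARS2*, a gene transcribed from the opposite strand. miR-194-5p is identical from both copies. RefSeq lists miR-194-3p from *MIR194-2* alone. By this annotation both miR-192 strands and miR-194-3p come from chromosome 11, miR-215-5p comes from chromosome 1, and the miR-194 guide can come from either.

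Depth was 6180032 to 9768152 miRNA reads in Ctrl and 5577287 to 8671618 in *MIR21*-KO. The targeted gene matched its labels, with miR-21-5p at 65.5 to 69.4% of miRNA reads in Ctrl and 0.0156 to 0.0254% in *MIR21*-KO. Levels are given as TMM-scaled counts per 1000000 reads, the authors' values, which set most miRNAs to a common level. The first principal component, with 64% of the variance, did not separate the conditions but 2 sets of libraries: set A with Ctrl replicates 1 and 2 and *MIR21*-KO replicate 3, and set B with Ctrl replicate 3 and *MIR21*-KO replicates 1 and 2. The labels name no batch that would match these sets, which were read from the same values. Differences between the conditions are therefore also given within the sets, or with a term for the sets in the fit.

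miR-192-5p was the dominant strand of both clusters, and it was lower in all *MIR21*-KO libraries than in any Ctrl library. Its level was 45591, 41633 and 26977 in Ctrl replicates 1, 2 and 3. In *MIR21*-KO replicates 1, 2 and 3 it was 3907, 3320 and 6154. The groups did not overlap, the lowest Ctrl library lying 4.38-fold above the highest *MIR21*-KO library. Means were 38067 ± 9806 in Ctrl and 4460 ± 1496 in *MIR21*-KO (SD, n = 3 each), an 8.53-fold difference. On the log2(value + 1) scale the difference was -3.11 (SE 0.38). It was -2.82 within set A and -2.90 within set B. miR-192-5p was the 5th most abundant miRNA in each Ctrl library, and stood at places 26, 26 and 19 in the *MIR21*-KO libraries.

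miR-215-5p, the strand with the same seed from chromosome 1, was far less abundant than miR-192-5p and was also lower in *MIR21*-KO. Its level was 174, 214 and 295 in Ctrl replicates 1, 2 and 3. It was 50.9, 41.8 and 50.6 in the *MIR21*-KO replicates. The *MIR21*-KO libraries lay close together and the groups did not overlap. Means were 228 ± 61.9 and 47.8 ± 5.13 (SD, n = 3 each), a 4.77-fold difference and -2.20 on the log2 scale (SE 0.43). It came to -1.91 within set A and -2.65 within set B. As a share of all miRNA reads the margin was narrower, with 0.00949% in the lowest Ctrl library and 0.00814% in the highest *MIR21*-KO library. The opposite strand, miR-215-3p, is no member and had 1 read, in Ctrl replicate 3, in all libraries. A miR-192-5p read that lacks its end bases can fit miR-215-5p as well. How many miR-215-5p reads arose in this way was not tested.

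miR-194-3p, which RefSeq lists from the chromosome 11 copy alone, had the largest fold difference of the 5 strands. Ctrl replicates 1, 2 and 3 held it at 70.5, 58.1 and 27.8. The *MIR21*-KO replicates held it at 4.39, 3.10 and 3.64. The groups did not overlap, and within Ctrl the library of set B was the lowest, as for miR-192-5p. Means were 52.1 ± 22.0 and 3.71 ± 0.649 (SD, n = 3 each), a 14.0-fold difference and -3.40 on the log2 scale (SE 0.48). Within set A the log2 difference was -3.81 and within set B it was -2.61. These levels rest on 197 to 264 reads in each Ctrl library and 28 to 61 in each *MIR21*-KO library.

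miR-192-3p, the passenger strand of *MIR192*, was near the limit of detection. It had 14, 15 and 35 reads in Ctrl replicates 1, 2 and 3. It had 11, 6 and 2 reads in the *MIR21*-KO replicates. As levels these were 3.74 to 4.94 in Ctrl and 0.260 to 0.792 in *MIR21*-KO, again without overlap. The log2 difference was -1.82 (SE 0.32), with -1.96 in set A and -1.89 in set B. Because the *MIR21*-KO values lie below the added 1, this scale understates the difference: the means differed 8.57-fold. The strand passed the filter on low values (at least 1 in at least 3 libraries) through the Ctrl libraries alone, so it had to differ.

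miR-194-5p, the guide strand of both *MIR194* copies, behaved unlike the others, since its level followed the library sets. It was 524, 464 and 3644 in Ctrl replicates 1, 2 and 3. In *MIR21*-KO replicates 1, 2 and 3 it was 335, 413 and 63.6. The library of set B was far above the other Ctrl libraries, and the library of set A was far below the other *MIR21*-KO libraries. The groups did not overlap, but by a narrow margin: the lowest Ctrl library was 1.12-fold above the highest *MIR21*-KO library. As a share of all miRNA reads, miR-21 included, the groups overlapped, with 0.0278% in the lowest Ctrl library and 0.0791% in the highest *MIR21*-KO library. Means were 1544 ± 1819 and 271 ± 184 (SD, n = 3 each), and the log2 difference was -2.21 with an SE of 1.01. Leaving out Ctrl replicate 3 gave -1.25, and leaving out *MIR21*-KO replicate 3 gave -1.37. Within the sets it was larger, -2.94 in set A and -3.29 in set B. With a term for the sets in the fit it was -3.11 (SE 0.24), beside -2.86 (SE 0.19) for miR-192-5p, -3.21 for miR-194-3p, -2.28 for miR-215-5p and -1.92 for miR-192-3p. The sets were read from these same values, so the SEs of this fit may understate the spread. Within each set, 1 of the conditions rests on 1 library.

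**Figure D1:**
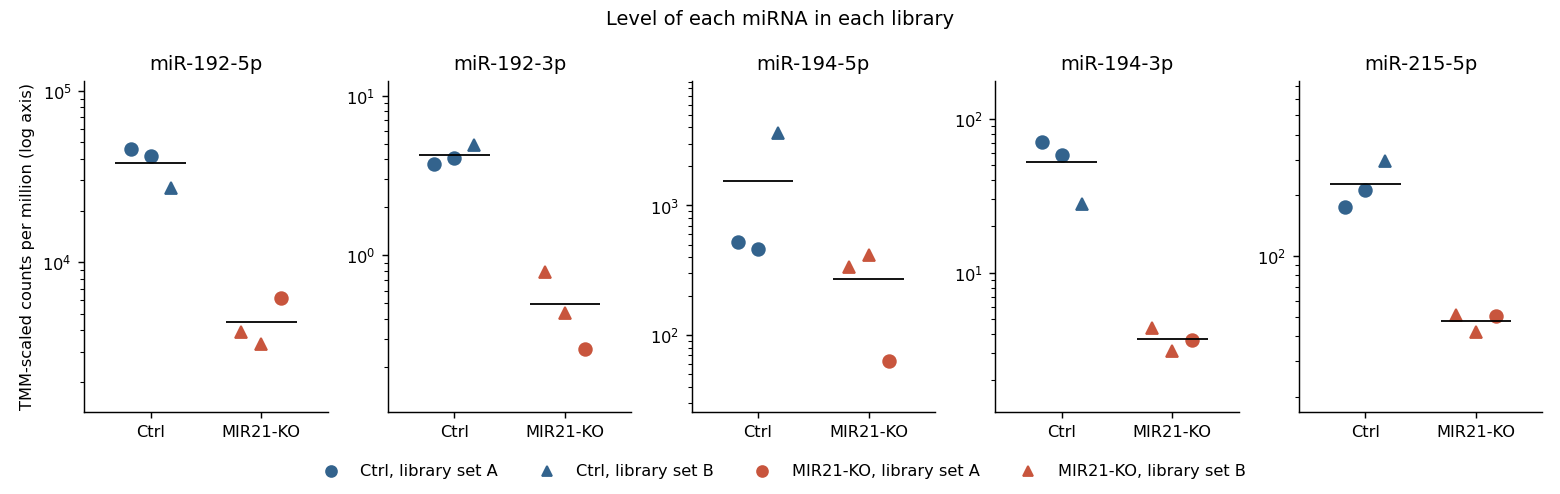
Level of each of the 5 strands (TMM-scaled counts per 1000000, log axis, a separate range in each panel) in the 3 Ctrl and 3 *MIR21*-KO libraries, with circles for library set A, triangles for set B and a line at the group mean. All *MIR21*-KO points lie below all Ctrl points in each panel, but for miR-194-5p the margin is 1.12-fold and the triangles lie far above the circles of the same group.

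**Figure D2:**
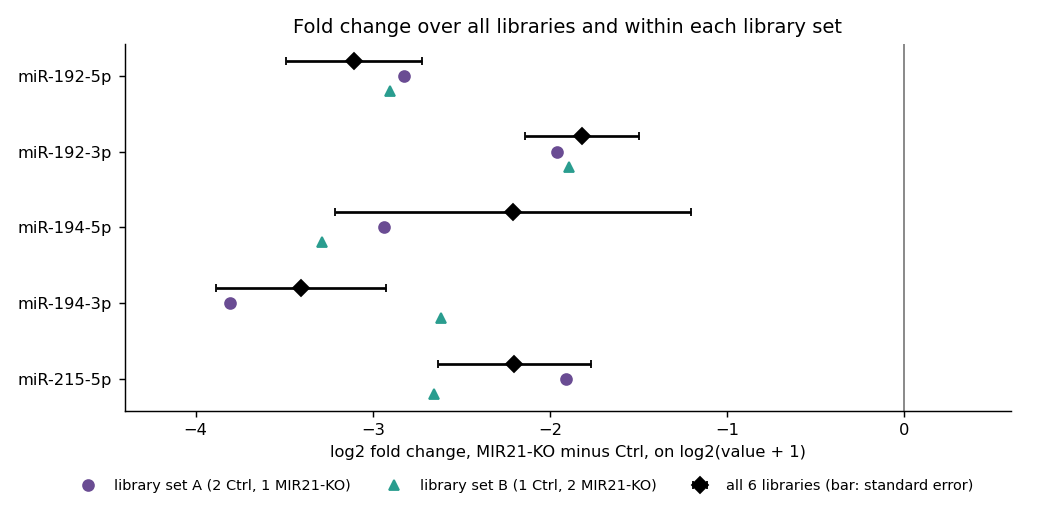
Difference between *MIR21*-KO and Ctrl on the log2(value + 1) scale for the 5 strands, over all 6 libraries (diamonds, with the standard error as bar) and within library sets A (circles) and B (triangles). For miR-194-5p both within-set values, -2.94 and -3.29, lie below the pooled value of -2.21, whose bar is the widest.

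In 5 of 5 strands every *MIR21*-KO library lay below every Ctrl library, which was so for 40 of all 607 miRNAs tested (6.59%). *MIR21*-KO was below Ctrl within both sets for 5 of 5 strands and for 107 of 607 miRNAs (17.6%). For miR-192-3p both were fixed in advance, since it passed the filter through the Ctrl libraries alone. For miR-194-5p the groups overlapped as a share of all miRNA reads. Across all miRNAs, limma gave, after adjustment at 0.05, 5 that fell in *MIR21*-KO (0.824%) and 0 that rose (0%). That count is over all 607 and does not stand for the 5 strands. At an unadjusted p under 0.05 limma gave 41 higher and 27 lower, edgeR called 0 higher and 7 lower after adjustment, and DESeq2 called 4 higher and 19 lower. Since the strands were chosen on this contrast, nothing is read from their counts against these shares. By log2 difference the 5 strands stood at places 3 (miR-194-3p), 4 (miR-192-5p), 6 (miR-194-5p), 7 (miR-215-5p) and 11 (miR-192-3p), counted from the lowest of 607, and the median of all tested was 0.24.

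**Figure D3:**
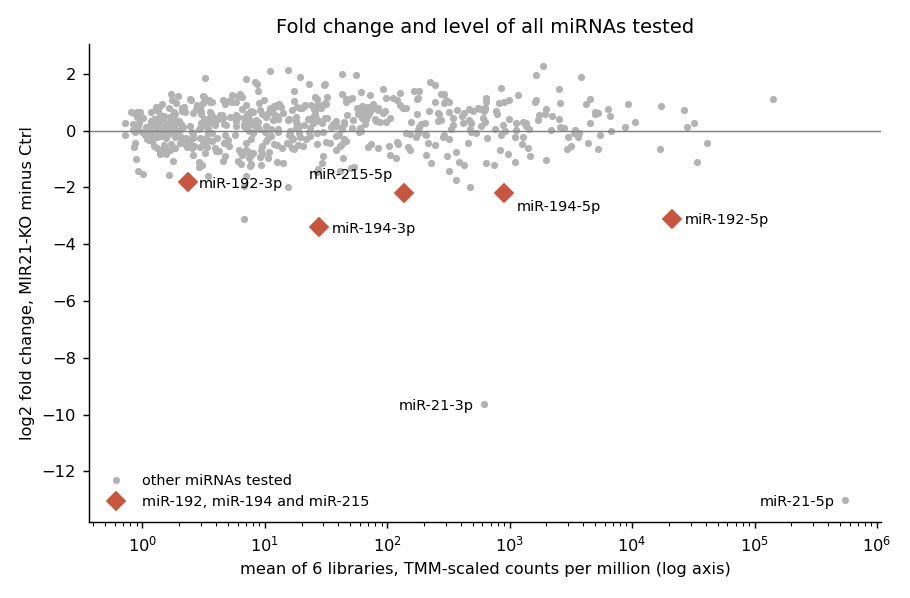
Log2 difference between *MIR21*-KO and Ctrl against the mean level over 6 libraries (log axis) for all 607 miRNAs tested (grey), with the 5 strands as diamonds and both strands of the deleted miR-21 named. The 5 strands lie between -1.82 and -3.40, while the median of all tested is 0.24.

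The summed reads of the 5 strands were a smaller share of the library in *MIR21*-KO. Of the reads that are not miR-21, they made up 7.33%, 8.06% and 7.39% in Ctrl replicates 1, 2 and 3. In the *MIR21*-KO replicates they made up 0.688%, 0.723% and 0.865%. The 3 Ctrl values lay close together, and so did the 3 *MIR21*-KO values, at means of 7.59 ± 0.404% and 0.759 ± 0.0936% (SD, n = 3 each), a 10.0-fold difference. The log2 difference was -3.33, and -3.27 as the mean of the within-set values. Of all miRNA reads, miR-21 included, the sum was 2.25 to 2.54% in Ctrl, which is smaller because miR-21-5p fills most of those libraries. miR-192-5p alone gave 87.2 to 98.3% of the summed reads. The strands that carry the seed UGACCUA came to 7.24 ± 0.722% in Ctrl and 0.711 ± 0.125% in *MIR21*-KO (SD, n = 3 each). miR-194-5p, with the seed GUAACAG, came to 0.347 ± 0.453% and 0.0472 ± 0.0356% (SD, n = 3 each). On the deposited scale the mean sum of the 5 strands differed by -35112 (*MIR21*-KO minus Ctrl), and that of all miRNAs other than miR-21 by 98335.

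Ratios of reads within a library do not depend on the scaling between libraries, and 7 were computed. The ratio of miR-192-5p to miR-192-3p was 12193, 10268 and 5462 in Ctrl replicates 1, 2 and 3. It was 4931, 7673 and 23666 in the *MIR21*-KO replicates. The groups overlapped, and with only 2 passenger reads in *MIR21*-KO replicate 3 its exact (Clopper-Pearson) 95% interval ran from 6551 to 195423, counting error only. Within set A the log2 ratio was higher in *MIR21*-KO by 1.08, and within set B by 0.17. In Ctrl this was the 3rd strongest excess of the 5p strand among 160 hairpins with reads of both strands in every library. Strands were paired by name, so a hairpin here can stand for several copies.

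The ratio of miR-194-5p to miR-194-3p split by library set and not by condition. It was 7.44, 7.98 and 131 in Ctrl replicates 1, 2 and 3. In the *MIR21*-KO replicates it was 76.3, 133 and 17.5. Set A thus ran from 7.44 to 17.5 and set B from 76.3 to 133, whatever the genotype. The log2 change between conditions was 1.18 within set A and -0.38 within set B, so its direction was not shared. On the log2 scale set B was above set A by 3.31, place 8 of 160 hairpins, whose median was 0.28 and whose 5th and 95th percentiles were -3.49 and 3.28. The groups did not overlap in this ratio for 11 of 160 hairpins (6.88%), and miR-192 and miR-194 were not among them. The deposited table holds miR-194-5p in 2 rows, which were summed. Its reads can come from both *MIR194* copies, while RefSeq lists miR-194-3p from *MIR194-2* alone. The miR-194 ratio is therefore not that of a single hairpin. Reads in the second row were 1.04, 1.38 and 1.64 times those in the first in Ctrl and 1.66, 1.56 and 1.43 times in *MIR21*-KO. Both rows carry the same sequence, and which copy each stands for is not given in the sources used here, so they say nothing of the share of each cluster.

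Across clusters, miR-192-5p (chromosome 11) exceeded miR-215-5p (chromosome 1) 262-, 195- and 91.3-fold in Ctrl replicates 1, 2 and 3. In *MIR21*-KO the ratio was 76.8, 79.4 and 122. Reads that lack their end bases can fit both strands, and their part in this ratio was not tested. The groups overlapped, and within the sets the ratio differed by -0.89 (A) and -0.23 (B) on the log2 scale. Within chromosome 11, miR-192-5p exceeded miR-194-3p 647-, 716- and 970-fold in Ctrl and 889-, 1071- and 1690-fold in *MIR21*-KO, again with overlap. The log2 difference of this ratio was 1.31 within set A and 0.01 within set B. The ratio of miR-215-5p to miR-194-3p was 2.47, 3.67 and 10.6 in Ctrl, against 11.6, 13.5 and 13.9 in *MIR21*-KO. Here all *MIR21*-KO libraries lay above the Ctrl libraries, but Ctrl replicate 3, the library of set B, lay close to them, and within set B the log2 difference was 0.23 against 2.21 within set A. The ratio of miR-192-5p to miR-194-5p was 87.0, 89.8 and 7.40 in Ctrl, against 11.7, 8.04 and 96.8 in *MIR21*-KO. Within a set it varied little, 87.0 to 96.8 in set A and 7.40 to 11.7 in set B. The log2 change within the sets was 0.13 (A) and 0.39 (B), so the guide strands of both hairpins differed between the conditions by similar factors there.

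**Figure D4:**
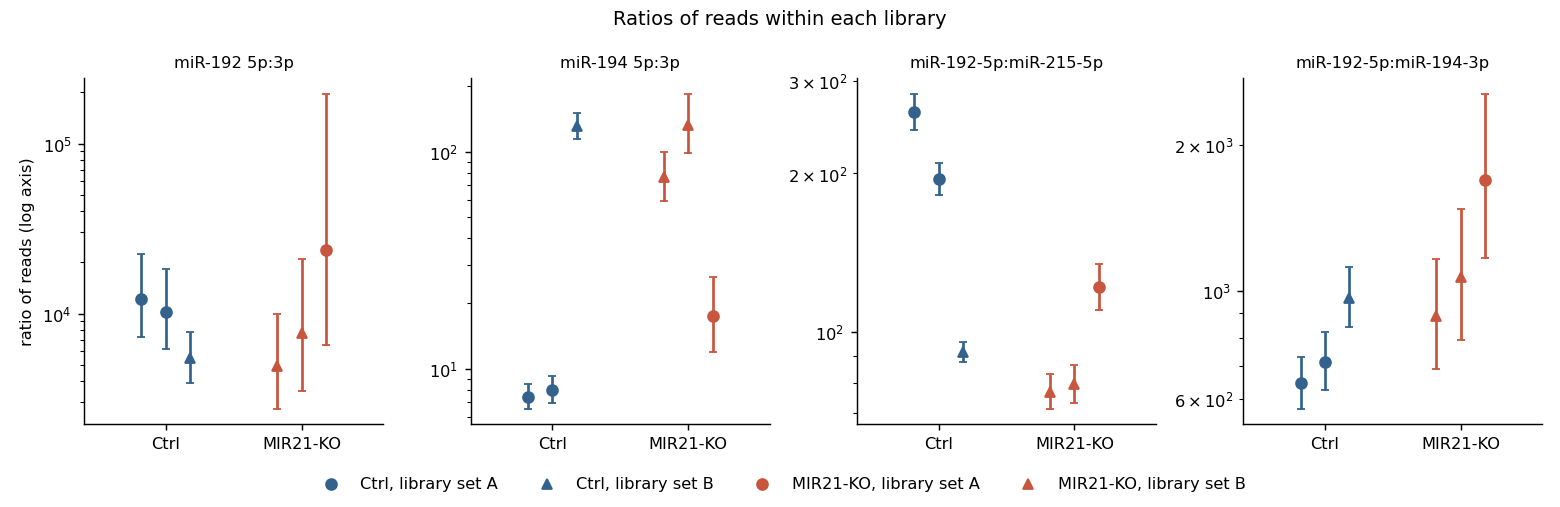
Ratios of reads within each library (log axis) for miR-192 5p to 3p, miR-194 5p to 3p, miR-192-5p to miR-215-5p and miR-192-5p to miR-194-3p, with exact 95% intervals as bars (counting error only), circles for library set A and triangles for set B. The miR-194 strand ratio lies at 7.44 to 17.5 in set A and 76.3 to 133 in set B in both conditions.

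**Figure D5:**
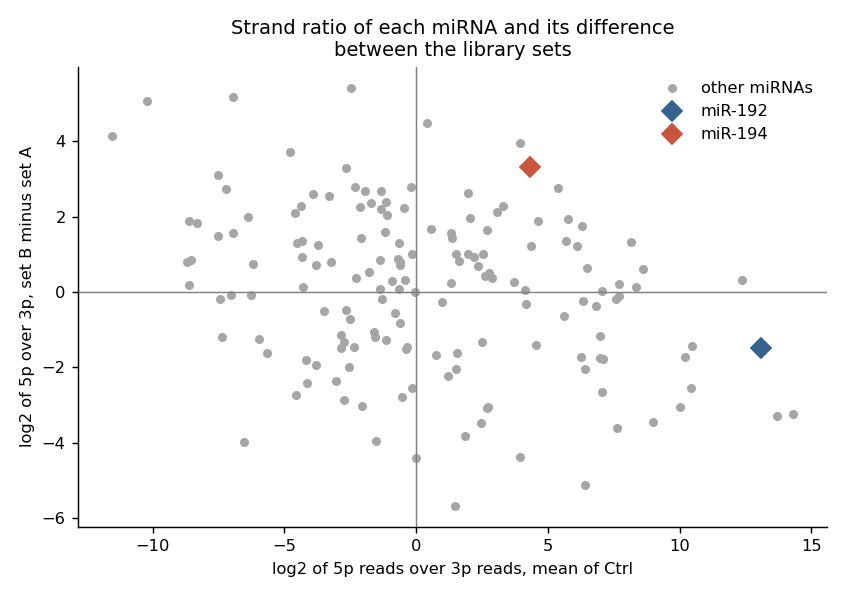
For 160 hairpins, the difference of the log2 ratio of 5p to 3p reads between library sets B and A, against the same ratio in Ctrl. Strands were paired by name, and the miR-194 5p reads can come from both copies. miR-194 (red) lies at 3.31 on the vertical axis, above the 95th percentile of 3.28, and miR-192 (blue) lies far to the right as the 3rd strongest excess of the 5p strand.

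The difference between the sets was not shared by the strands. With the condition in the fit, set B was above set A by 2.71 on the log2 scale for miR-194-5p, place 13 of 607. The other strands differed by -0.73 (miR-192-5p), -0.58 (miR-194-3p), 0.24 (miR-215-5p) and 0.31 (miR-192-3p). All miRNAs tested had a median of 0.20 and 5th and 95th percentiles of -2.0 and 2.31, so only miR-194-5p of the 5 lay outside this range. miR-194-3p, which RefSeq lists from *MIR194-2*, differed between the sets with the opposite sign.

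Likeness of pattern was measured as the root mean square difference of log2(value + 1), each centred on its own mean over the 6 libraries, from miR-192-5p. Of the other strands, miR-194-3p was closest at 0.348, followed by miR-215-5p at 0.675 and miR-192-3p at 0.815. miR-194-5p was at 1.69, beside a median of 1.88 for 328 other miRNAs with a mean level of at least 10. Ranked with these it would stand at place 113. miR-192-3p, with a mean level of 2.37, is below that floor of 10. The strands were chosen on the difference between the groups, which enters this measure. Their closeness to miR-192-5p was therefore partly fixed in advance. Of those 328 the closest were miR-9-5p (0.718), miR-7974 (0.880), miR-9-3p (0.939), miR-4473 (0.942) and miR-32-3p (1.01). miR-9-5p, best known from neural tissue, was at 746, 582 and 388 in Ctrl, against 155, 160 and 177 in *MIR21*-KO.

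*MIR194-2HG* is the host transcript of the chromosome 11 cluster, and its promoter is shown as background on the regulators named above. Whether its transcription differed between the conditions was not tested. The 300 bases around the start are from RefSeq (GRCh38.p14, chr11:64893400-64893699, minus strand).
MIR194-2HG: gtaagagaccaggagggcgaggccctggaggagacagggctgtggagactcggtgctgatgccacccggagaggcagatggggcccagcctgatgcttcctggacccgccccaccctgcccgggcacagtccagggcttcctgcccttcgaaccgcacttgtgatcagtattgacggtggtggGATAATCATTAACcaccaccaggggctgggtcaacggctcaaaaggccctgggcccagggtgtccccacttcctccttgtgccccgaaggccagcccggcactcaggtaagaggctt
Capitals mark a match, with 1 mismatch, to the HNF1 palindrome: GTTAAT, 1 unspecified base and its reverse complement ATTAAC. It covers positions 184 to 196, and such a match, on either strand, was found in 37 of 27305 promoters (0.136%). The half-site alone, GTTAAT on either strand, which overlaps it, was present here and in 6.89% of promoters. A p53 half-site, RRRCWWGYYY (R for A or G, W for A or T, Y for C or T), was not found in this window, and 6.54% of promoters held one. It was searched with no mismatch allowed, unlike the HNF1 palindrome, so these searches cannot be set against each other. A match of letters is not a binding site, and no binding was measured.

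The miRNAs that share the regulators or tissues of these clusters were taken from 4 lists. Of 13 strands known to be induced by p53, 11 were tested and limma called 0 higher and 0 lower, with a median log2 difference of 0.69 beside 0.24 for all tested. With the set term the median was 0.27 beside 0.12, again with 0 called. Among them miR-34c-5p, a direct p53 target, was at 720, 814 and 1699 in Ctrl, against 2849, 2458 and 1148 in *MIR21*-KO, with overlap (log2 difference 1.0, SE 0.54, limma adjusted p = 0.565). miR-34a-5p was at 125, 188 and 954 in Ctrl, against 867, 696 and 156 in *MIR21*-KO, a split by library set (log2 difference 0.69, SE 0.94, limma adjusted p = 0.789, and -0.13 with the set term). In 2 of the 11 all *MIR21*-KO libraries lay above all Ctrl libraries: miR-34b-3p, with a log2 difference of 0.72, and miR-1246, named after its values were seen, with 0.46. Both margins were narrow. For miR-34b-3p the highest Ctrl library was at 16.76 and the lowest *MIR21*-KO library at 17.94. For the low miR-1246 these were 4.595 and 4.811. The share of all miRNAs tested that lay above in this way is not given here, so no rise of the list is read from these 2.

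Of 9 strands listed as enriched in liver, gut or kidney, 5 were tested, with 0 called in either direction and a median of -0.09, which was 0.35 with the set term. Those tested were miR-31-5p, miR-31-3p, miR-147b, miR-122-5p and miR-375, while miR-122-3p and miR-802 had no reads in any library. The most abundant, miR-31-5p, was at 502, 652 and 3197 in Ctrl, against 4934, 4951 and 911 in *MIR21*-KO, with overlap (log2 difference 1.47, SE 0.91, limma adjusted p = 0.624, and 0.65 with the set term). The liver miRNA miR-122-5p was at 7.90 to 141 in Ctrl and 8.58 to 51.9 in *MIR21*-KO, with overlap (log2 difference -1.27, SE 1.12, limma adjusted p = 0.719, and -0.31 with the set term). Of 9 strands of the epithelial miR-200 family, 7 were tested with 0 called and a median of -0.48. Its most abundant strand, miR-200b-3p, was at 1953, 1193 and 1343 in Ctrl, against 530, 577 and 1038 in *MIR21*-KO, without overlap (limma adjusted p = 0.431). In 2 of the 7 every *MIR21*-KO library lay below every Ctrl library, and in 0 above. Lying below was so for 40 of all 607 miRNAs tested (6.59%). With the set term, whose p-values are not independent of the values the sets were read from, 1 of the 7 was called higher (miR-200c-3p, named after its value was seen, log2 difference 0.91) and 3 lower (miR-200b-3p, miR-200a-5p and miR-200a-3p). Of all 607 miRNAs tested, limma with that term called 71 higher and 39 lower. Of 8 markers of blood cells, 2 were tested and 0 called, with a median of -1.04. The sum of the 8 was 137 to 220 in Ctrl and 78.8 to 93.1 in *MIR21*-KO, none was at 0 in all libraries, and most of it was miR-486-5p. miR-486-5p was at 164, 175 and 135 in Ctrl, against 80.1, 75.7 and 83.6 in *MIR21*-KO, without overlap (log2 difference -0.97, limma adjusted p = 0.434). With the set term it was the 1 blood marker called, at -0.90 (limma adjusted p = 0.027), beside 39 of all 607 miRNAs called lower with that term. The erythroid marker miR-451a was at 16.3, 41.6 and 1.69 in Ctrl, against 4.61, 2.45 and 8.97 in *MIR21*-KO. The part of these markers in the levels of the miR-192 and miR-194 strands was not tested.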

How the data were processed

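Small RNA libraries of A549 cells, 3 parental (Ctrl) and 3 *MIR21*-KO, were analysed. The submitters' processing notes name cutadapt 1.14, Bowtie2 2.3.2, SAMtools 1.5, featureCounts 1.5.3, edgeR 3.18.1 and the build hg38, without their settings; how reads that fit several loci were counted is not given in the sources used here. The authors deposited a signal per miRNA, TMM-scaled counts per 1000000, beside log2 fold changes and p-values of their comparison, which were not used. In each library 100% of the deposited values were whole multiples of 1 read (tolerance 1e-06 reads), so reads were recovered.

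The 2813 rows were summed by name to 2588 miRNAs. limma 3.58.1 (R 4.3.3, eBayes with trend) was fitted with condition as its only term on log2(value + 1) over the 607 miRNAs that reached 1 in 3 or more libraries, with Benjamini-Hochberg adjustment. edgeR 4.0.16 (quasi-likelihood) and DESeq2 1.42.0 on the recovered reads, other pseudocounts, filters and scalings, a replicate block, a library set term and each library left out were alternatives. edgeR with the set term and values within the sets were added after seeing the data. Strand ratios on the log2 scale used read counts. The fit was also run on simulated libraries that held no library sets, so that run does not test it for the set split of these data. Intervals are exact (Clopper-Pearson) and cover counting error only, since reads were not identified by molecule.

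The members and lists were chosen with earlier results of these data known. Named are the 5 strands, miR-215-3p, up to 4 of each list with the highest mean, of which a few are given, and the 5 miRNAs most like miR-192-5p.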

Additional observations from a re-analysis of the deposited data

How the results depend on the processing

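The log2 differences of the 5 strands were negative in every setting run (17 for miR-192-3p, which the filter of a mean of at least 10 removes, and 18 for each other strand). Their size depended on the scaling: scaled to total miRNA reads, miR-21 included, they were -1.72 (miR-192-5p), -1.03 (miR-192-3p), -2.16 (miR-194-3p), -0.83 (miR-215-5p) and -0.83 (miR-194-5p). That scaling moves the median of all miRNAs tested from 0.24 to 1.34. The summed strands changed by -3.33 on the log2 scale as a share of reads without miR-21 and by -1.69 as a share of all. Low strands depended on the pseudocount and tool: miR-192-3p was -2.96 with 0.1, -0.44 with 10, -3.08 by edgeR, -3.25 by edgeR with the set term and -3.33 by DESeq2. miR-194-3p was -2.11 with 10 and -4.09 by DESeq2. The log2 change of the miR-192 strand ratio, 0.13, ranged from -0.52 (without MIR21-KO replicate 3) to 0.61 with single libraries left out, and was -0.22 without Ctrl replicate 3, so it has no fixed direction. That of the miR-194 ratio, 1.5 over all libraries and 0.40 as the mean within the sets, ranged from 0.80 (without Ctrl replicate 1) to 2.87 (without Ctrl replicate 3), but turned to -0.38 within set B, so it has no fixed direction either.

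The 5 miRNAs called lower across the table became 3 with a pseudocount of 10, 39 with the set term, 38 by edgeR with the set term, 19 by DESeq2 and 2 to 5 with single libraries left out (2 where Ctrl replicate 1 or either of MIR21-KO replicates 1 and 2 was absent, and 3 where Ctrl replicate 2 or MIR21-KO replicate 3 was). The 0 called higher became 196 scaled to the total, 71 with the set term, 54 by edgeR with it and 4 by DESeq2. With the replicate block 2 were called lower. Same-numbered libraries deviated in opposite directions (correlations -0.786, -0.604 and -0.878), so the numbers do not pair them. The cause of these changes was not tested. Depth limits miR-192-3p, with 2 to 35 reads a library.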
